A study of Mus musculus with 34 samples.

Results

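Mitosis is the phase of the cell cycle in which replicated chromosomes condense, attach to the spindle and are pulled apart into daughter cells. Entry is driven by Cdk1 bound to B-type cyclins, a checkpoint at the kinetochores holds back the anaphase-promoting complex (APC/C) until every chromosome is attached, and the APC/C then marks cyclins and other proteins for destruction. Transcripts of most genes of this machinery accumulate in G2 and mitosis, so their level in a culture is widely read as a measure of how many cells are dividing. The 34 genes described here are 34 of 24103 entries of a gene expression table and were chosen by symbol. They were the cyclins and their kinase (Ccna2, Ccnb1, Ccnb2, Cdk1) with the phosphatase Cdc25c that activates Cdk1, the mitotic kinases Plk1, Aurka and Melk, and the chromosomal passenger complex (Aurkb, Incenp, Birc5, Cdca8). They also comprised the spindle checkpoint and its APC/C targets and partners (Bub1, Bub1b, Ttk, Mad2l1, Cdc20, Ube2c), centromere and kinetochore proteins (Cenpa, Cenpe, Cenpf, Ndc80, Nuf2, Spc24, Spc25), spindle motors and microtubule bundlers (Kif11, Kif20a, Kif23, Kif2c, Prc1, Tpx2, Nusap1, Dlgap5) and Top2a, the topoisomerase that untangles sister chromatids.

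Polyadenylated RNA of mouse cells was sequenced as 34 libraries in 9 groups, as the expression arm of a study of DNA replication timing during differentiation. The 6 libraries of mouse embryonic fibroblasts (MEF) came from 2 cultures of C57BL6 embryos taken at 12.5 days, grown in serum, each sampled at passages 0, 1 and 2. The 3 libraries of epiblast stem cells (EpiSC, C57BL6, female) were grown on MEF feeder cells with Activin and FGF, at passages 6 and 7. The other 25 libraries followed 1 line of embryonic stem cells, CBMS1 (a CBA and MsM hybrid), through a neurectoderm protocol. It was sampled as embryonic stem cells in 2i and LIF (ESC, day 0, 3 libraries), as epiblast-like cells (EpiLC, day 2, 5 libraries) and as floating aggregates in medium without added growth factors (embryoid bodies, EB) at days 3, 4, 5 and 6 (3 libraries each) and day 7 (5 libraries). The cell-type field of the labels disagrees with the titles and source names for part of these libraries, and the titles and source names were followed. Labels call the libraries biological replicates without saying in each case that the cultures were separate, so a p-value here reflects no more than how these libraries scatter, which may be partly technical. Strain, medium and feeder cells differ between the MEF, the EpiSC and the course together with cell type and cannot be told apart from it. Each library also carries a project letter, A or B. All MEF and ESC are A, all EpiSC are B, and EpiLC and EB of days 3 to 7 have some of each. Where EpiSC are ranked against MEF or ESC, project therefore cannot be separated from cell type.

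Levels are in FPKM (fragments scaled to transcript length and to the mapped fragments of the library), which is scaled by length and so can be set side by side between genes. Depth is unknown, because read counts were not used here. All 34 genes matched exactly 1 entry each and all passed the filter of at least 1 FPKM in at least 3 libraries, which 14595 entries passed. Summed over the table, libraries held between 485696 and 990727 FPKM with a median of 599704, and the highest sum was that of day 3 replicate 3, above the next library at 734764. Zfp42, a naive stem cell gene, averaged 363.6 FPKM at day 0 and Sox1, a neurectoderm gene, was listed at 0 in every MEF library. Not every marker sum followed the labels. Neural progenitor markers, summed over 5 genes, had 230.4 to 254.1 FPKM at day 0 and 203.4 to 251.2 FPKM at day 7. Naive markers, summed over 5 genes, had 1047 to 1150 FPKM at day 0, 9.844 to 30.63 FPKM at day 7 and 51.75 to 61.07 FPKM in MEF. Singly, 5 of the 5 naive markers averaged at least 1 FPKM at day 0 and 1 did in MEF. In comparisons, a gene is called different where its difference in log2(FPKM + 1) is at least 1 and its adjusted p, from limma with Benjamini-Hochberg adjustment over all genes tested, is under 0.05. By this rule, 4 of the 5 neural progenitor markers were higher at day 7 than at day 0 and 1 was lower. Their median difference was 2.31.

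MEF had the lowest mean of the 9 groups for 34 of 34 genes. EpiSC had the highest mean for 19 of them, EB day 3 for 7, EB day 4 for 6 and ESC for 2. The mean of log2(FPKM + 1) over the 34 genes was 3.96 ± 0.68 in MEF (SD, n = 6), 6.10 ± 0.18 in EpiSC and 5.63 ± 0.07 in ESC (n = 3 each). It was 5.75 ± 0.04 in EpiLC (n = 5), 6.02 ± 0.14 at day 3, 5.97 ± 0.05 at day 4, 5.64 ± 0.13 at day 5, 5.53 ± 0.16 at day 6 (n = 3 each) and 5.45 ± 0.07 at day 7 (n = 5). All MEF libraries lay below all others. Libraries of EpiSC (5.91 to 6.27), day 3 (5.89 to 6.17) and day 4 (5.92 to 6.01) overlapped each other and lay above those of the remaining days (5.36 to 5.80), which overlapped in part. This order is that of FPKM as deposited. The median difference of the 34 genes at day 3 against day 2 was 0.25 as deposited. It was −0.01 with each library scaled to the same FPKM sum. Within MEF, the passage 1 libraries had 4.70 and 4.92, against 3.54 to 3.81 at passage 0, and 3.34 to 3.45 at passage 2.

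**Figure D1:**
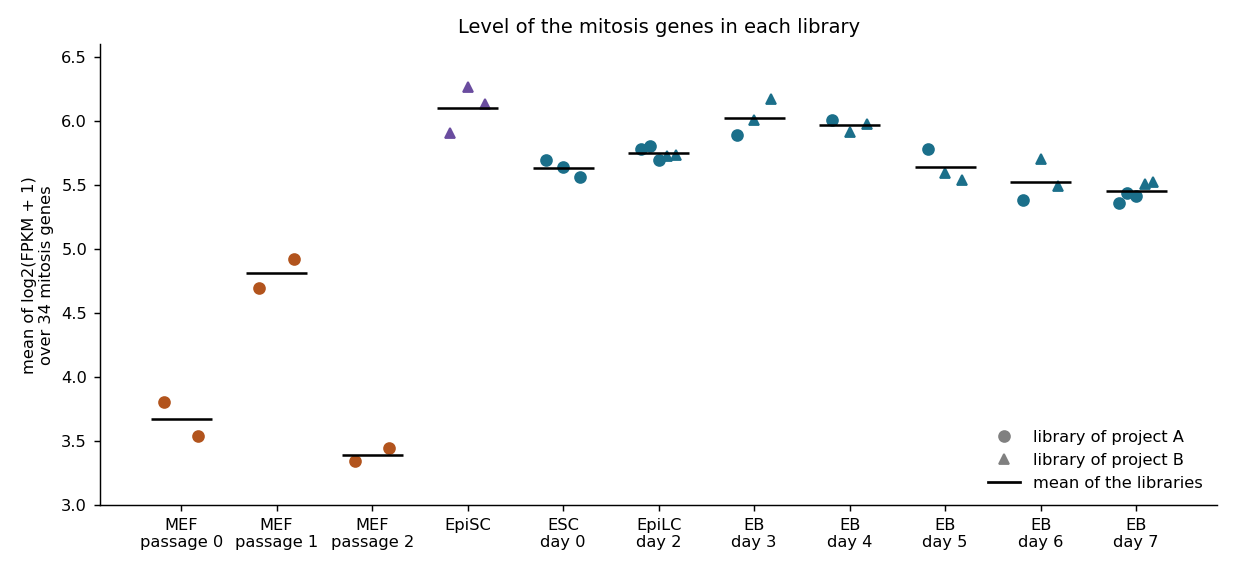
Level of the mitosis genes in each of the 34 libraries, by group on the horizontal axis. The vertical axis is the mean of log2(FPKM + 1) over the 34 genes, each point is a library (circles, project A; triangles, project B) and the line is the group mean. MEF passage 1 stands above passages 0 and 2, and every MEF library lies below every other library.

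Ube2c, the ubiquitin-conjugating enzyme of the APC/C, was the most abundant of the genes in MEF (53.5 FPKM on average), EpiSC (264.0 FPKM) and ESC (281 FPKM). Cdc20, the APC/C activator, led at day 3 (308 FPKM) and Ccnb1, cyclin B1, at day 4 (249 FPKM). The lowest means were those of the kinetochore protein Cenpf in MEF (3.83 FPKM), the kinetochore motor Cenpe in EpiSC (21.4 FPKM) and Cdc25c in ESC (12.8 FPKM). Even the least abundant of the genes was thus above the filter level in each of these groups.

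The promoters are shown for 7 of the genes because members that move together are often grouped by the elements near their start. Promoters of genes expressed in G2 and mitosis are known for the cell cycle genes homology region (CHR), bound by the MuvB complexes, and for CCAAT boxes, bound by NF-Y. The sequences are the 100 bases before the start in the RefSeq annotation of GRCm38.p6, 5′ to 3′ on the strand of the gene, with CHR (TTTGAA, or TTCAAA on the other strand) and CCAAT (or ATTGG on the other strand) in capitals; no matches overlapped. They were picked after their motifs had been counted, to show promoters with both motifs, with CCAAT alone and with neither.
Cdk1: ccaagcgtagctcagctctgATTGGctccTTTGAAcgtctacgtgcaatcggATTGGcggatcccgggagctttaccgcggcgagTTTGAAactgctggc
Top2a: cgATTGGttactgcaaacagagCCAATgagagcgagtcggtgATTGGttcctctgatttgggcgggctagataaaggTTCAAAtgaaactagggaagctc
Ube2c: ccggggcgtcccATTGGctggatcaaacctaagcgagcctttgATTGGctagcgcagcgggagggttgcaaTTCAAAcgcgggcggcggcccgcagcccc
Cdc20: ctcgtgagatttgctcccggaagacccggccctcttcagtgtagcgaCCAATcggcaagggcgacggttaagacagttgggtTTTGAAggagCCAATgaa
Kif11: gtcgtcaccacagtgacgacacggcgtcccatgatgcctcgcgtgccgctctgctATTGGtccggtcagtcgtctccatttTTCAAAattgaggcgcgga
Ccnb1: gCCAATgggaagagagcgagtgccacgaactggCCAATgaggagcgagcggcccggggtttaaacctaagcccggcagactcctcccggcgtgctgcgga
Nusap1: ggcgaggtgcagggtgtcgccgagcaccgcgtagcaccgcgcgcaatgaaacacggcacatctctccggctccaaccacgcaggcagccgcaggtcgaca
These stretches lie at chr10:69352913-69353012 (minus strand) for Cdk1, chr11:99024190-99024289 (minus) for Top2a, chr2:164769829-164769928 (plus) for Ube2c and chr4:118437344-118437443 (minus) for Cdc20. Those of Kif11, Ccnb1 and Nusap1 lie at chr19:37376282-37376381 (plus), chr13:100786487-100786586 (minus) and chr2:119618198-119618297 (plus).

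The promoter table held 26 of the 34 genes. From 250 bases before to 50 after the start, 18 of the 26 (69.2%) held a CHR match, against 20.2% of the 27025 genes of the table. A CCAAT match was found in 19 (73.1%) against 41.1% of all genes, and at least 2 CCAAT matches in 13 against 13.3% of all genes. Both motifs stood in the same window in 16 genes (61.5%) against 7.97%, and neither in 5 (19.2%) against 47.7%. In 17 of the 18 genes with a CHR match, the match nearest the start lay within 50 bases of it. A match describes letters in a window and does not show a bound site, and the absence of one says nothing about the factor.

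The comparison between MEF passages asked how the machinery varied within 1 cell type. All 34 genes had their highest MEF level at passage 1, in both cultures. Against passage 0, 29 of 34 genes were higher at passage 1 and 0 were lower, where 1.12% of all genes tested were higher. The median difference in log2(FPKM + 1) was 1.15, with a range from 0.72 for Mad2l1 to 1.42 for Cdca8, and for all 34 both passage 1 libraries lay above both passage 0 libraries, as they did for 29% of all genes tested. As ratios of mean FPKM, passage 1 stood between 1.695 and 2.894 times above passage 0. At passage 2, all 34 of 34 genes were lower than at passage 1, where 1.65% of all genes tested were lower. Here the median difference was −1.40, with a range from −1.80 for Birc5 to −1.03 for Cenpf, and ratios of mean FPKM between 0.276 and 0.426. Both passage 2 libraries lay below both passage 1 libraries for all 34 genes, and for 28.7% of all genes tested. These counts come from 2 libraries a passage in a fit that takes its spread from all groups. A limma fit on the passages compared alone, with 4 libraries, called 0 of the 34 genes in either step. In each step 34 had an unadjusted p under 0.05 in that fit, and the share of all genes at that level was not counted. Their smallest adjusted p in limma was 0.109 (passage 1 against 0) and 0.0958 (passage 2 against 1). In bulk RNA, fewer dividing cells and less of these transcripts per dividing cell cannot be told apart.

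**Figure D2:**
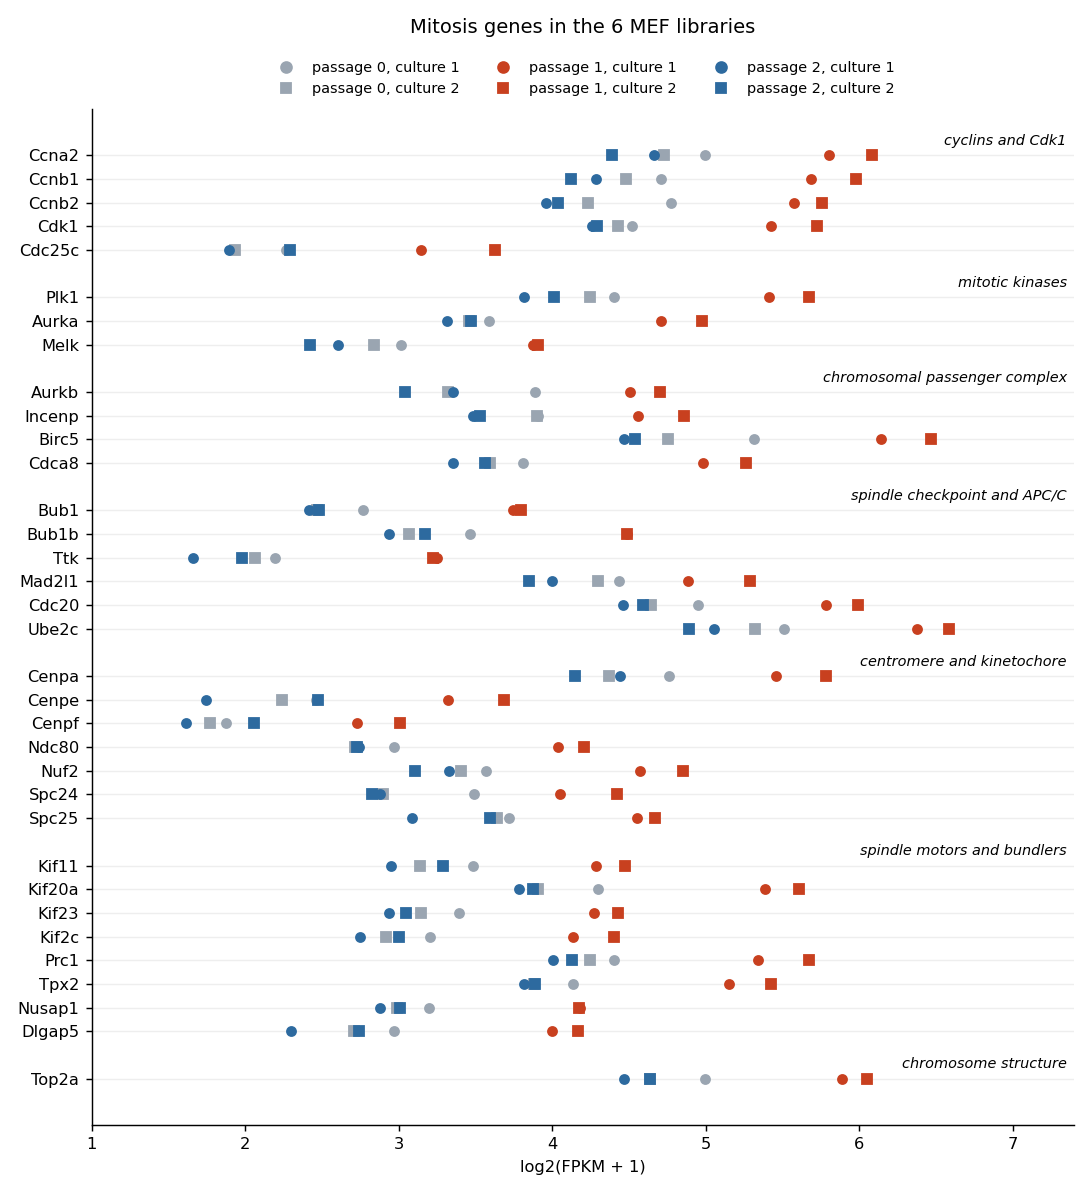
Level of each of the 34 mitosis genes in the 6 MEF libraries, as log2(FPKM + 1) on the horizontal axis, with genes grouped by role down the page. Colours mark passages 0, 1 and 2, circles culture 1 and squares culture 2; for every gene both passage 1 points lie to the right of the other 4.

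Ccnb1 encodes the cyclin that activates Cdk1 at mitotic entry and lies at 101548694–101556441 on chromosome 13 (mm9, the build of the deposited table). At passage 1 it had 50.3 FPKM in culture 1 and 62.1 FPKM in culture 2, against 25.1 and 21.3 FPKM at passage 0. The passage 2 libraries had 18.5 and 16.4 FPKM, so both cultures peaked at passage 1 and ended below their start. Ccnb2, its close relative, had 46.7 and 53.0 FPKM at passage 1, against 26.3 and 17.8 FPKM at passage 0, and 14.5 and 15.4 FPKM at passage 2. Its fall to passage 2 was −1.67 (SE 0.15), with an adjusted p of 1.59e-08 from limma. All 5 genes of this role (the cyclins, Cdk1 and Cdc25c) were called in both steps, with median differences of 1.16 to passage 1 and −1.42 to passage 2. Cdk1 itself averaged 46.9 ± 7.07 FPKM at passage 1 and 21.2 ± 0.996 FPKM at passage 0 (SD, n = 2 each), and 18.3 ± 0.331 FPKM at passage 2.

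Among the kinases, Plk1, which acts at centrosomes, kinetochores and the midzone, had 41.6 and 49.9 FPKM at passage 1, against 20.1 and 17.9 FPKM at passage 0. It had 13.1 and 15.2 FPKM at passage 2, and the differences were 1.22 to passage 1 (SE 0.15, adjusted p 1.68e-06, limma) and −1.63 to passage 2 (SE 0.15, adjusted p 2.63e-08, limma). No passage 1 library of Plk1 came near those of the other passages. Aurka, the spindle pole kinase, had 25.1 and 30.5 FPKM at passage 1, against 11.04 and 9.97 FPKM at passage 0, a difference of 1.32 (SE 0.16, adjusted p 1.68e-06, limma). Of Plk1, Aurka and Melk, only Melk was not called in the first step, at 0.96.

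In the chromosomal passenger complex, which corrects faulty attachments and later sets the cleavage plane, 2 of 4 genes were called higher at passage 1 and all 4 lower at passage 2. Cdca8, the borealin subunit, had 30.6 and 37.3 FPKM at passage 1, against 13.0 and 11.1 FPKM at passage 0, and 9.21 and 10.8 FPKM at passage 2. Its difference of 1.42 to passage 1 (SE 0.16, adjusted p 5.72e-07, limma) was the greatest of the 34 genes. Birc5, survivin, had 69.4 and 87.6 FPKM at passage 1, against 38.8 and 26.0 FPKM at passage 0. With 21.1 and 22.2 FPKM at passage 2 it had the greatest fall of the 34 genes, −1.80 (SE 0.21, adjusted p 9.69e-07, limma). Aurkb, the kinase of the complex, differed by 1.00 to passage 1, just short of the minimum, and Incenp, its scaffold, by 0.80.

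Of the checkpoint and APC/C genes, 5 of 6 were called higher at passage 1 and all 6 lower at passage 2. Bub1b, the BubR1 protein of the mitotic checkpoint complex, had 21.4 FPKM in both cultures at passage 1, against 10.0 and 7.37 FPKM at passage 0. Its differences were 1.22 to passage 1 (SE 0.14, adjusted p 5.72e-07, limma) and −1.43 to passage 2 (SE 0.14, adjusted p 5.17e-08, limma). The gap between its passages was far wider than that between its cultures. Cdc20 had 54.0 and 62.7 FPKM at passage 1, against 29.9 and 24.0 FPKM at passage 0, and 21.0 and 23.1 FPKM at passage 2. Ube2c averaged 88.4 ± 9.15 FPKM at passage 1 and 41.7 ± 3.9 FPKM at passage 0 (SD, n = 2 each), with 30.4 ± 2.53 FPKM at passage 2. Mad2l1, which encodes the checkpoint protein Mad2, was the exception, at 28.5 and 38.1 FPKM at passage 1 against 20.7 and 18.7 FPKM at passage 0 (difference 0.72, adjusted p 0.0729, limma).

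Centromere and kinetochore genes followed the same course, with 6 of 7 called higher at passage 1, all but Spc25 (0.93), and 7 of 7 lower at passage 2. Cenpa, the histone H3 variant of centromeres, had 42.9 and 54.1 FPKM at passage 1, against 26.1 and 19.7 FPKM at passage 0, and 20.7 and 16.7 FPKM at passage 2. Nuf2, a subunit of the microtubule-binding Ndc80 complex, had 22.8 and 27.8 FPKM at passage 1, against 10.8 and 9.61 FPKM at passage 0. All 8 motors and bundlers were called in both steps. Kif20a, which carries the passenger complex to the midzone, had 40.8 and 47.8 FPKM at passage 1, against 18.6 and 14.0 FPKM at passage 0. It had 12.7 and 13.6 FPKM at passage 2, and its differences of 1.4 (SE 0.15, adjusted p 1.59e-07, limma) and −1.67 (SE 0.15, adjusted p 1.59e-08, limma) were among those with the smallest adjusted p in each step. Tpx2, the spindle assembly factor that activates Aurora A, differed by 1.28 to passage 1 (SE 0.13, adjusted p 1.59e-07, limma) and −1.43 to passage 2 (SE 0.13, adjusted p 3.35e-08, limma). Kif11, the motor that pushes spindle poles apart, averaged 19.8 ± 1.89 FPKM at passage 1 and 8.98 ± 1.69 FPKM at passage 0, and Top2a 61.6 ± 4.85 and 27.3 ± 4.94 FPKM (SD, n = 2 each).

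The cultures differed in the size of the first step. From passage 0, culture 2 gained a median of 1.42 at passage 1 (range 0.96 to 1.71) and culture 1 a median of 0.89 (0.45 to 1.17), with 34 of 34 genes higher at passage 1 in each. The calls at passage 1 rested partly on culture 2: without its passage 0 library 17 genes were called, with a median of 1.00, and without its passage 1 library 19, with a median of 1.06. From passage 1 to passage 2, the medians were −1.33 in culture 1 and −1.46 in culture 2, and leaving out any 1 MEF library of these passages left 32 to 34 genes called.

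Between passages 2 and 0, 0 of 34 genes were called, where 0.391% of all genes tested were. An unadjusted p under 0.05 in limma was found for 10 of the 34, and the share of all genes at that level was not counted. The median difference was −0.27, from −0.53 for Birc5 to 0.01 for Cenpf. In culture 1 all 34 genes were lower at passage 2 than at passage 0 (median −0.45), while in culture 2, 21 were lower and 12 higher (median −0.06). The sampling dates in the titles put passage 1 at 2 days after passage 0 and passage 2 at 1 day after passage 1, in both cultures. Passage, date and time since plating therefore cannot be told apart.

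Of 9 fibroblast markers, 1 was called in the passages. Summed over the 9, the MEF libraries had 9070 to 9397 FPKM at passage 1, against 10802 to 13822 FPKM at passage 0, and 12549 to 13064 FPKM at passage 2. The collagen-binding proteoglycan Dcn was the marker called, at 228 FPKM on average at passage 1 against 644 FPKM at passage 0 (difference −1.46, adjusted p 0.00958, limma). The passage 1 libraries thus held the lowest marker sums of the 6, and the part of this in the mitosis genes' levels was not tested. The 18 genes with a CHR match had a median difference of 1.13 to passage 1 (0.93 to 1.42), and the 8 with a promoter in the table and no match 1.15 (0.72 to 1.27).

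Other cell cycle genes were read from 7 further lists. Of 58 tested further mitosis genes, 27 were higher at passage 1 than at passage 0 and 43 were lower at passage 2 than at passage 1, with 0 called the other way. The kinase Nek2, which splits centrosomes, averaged 13.1 FPKM at passage 1 and 4.93 FPKM at passage 0 (1.25, adjusted p 4.35e-07, limma), and differed by −1.42 to passage 2 (adjusted p 6.59e-08, limma). Racgap1, the centralspindlin subunit that partners Kif23, differed by 1.25 and −1.47 in the same steps. Of 24 S phase genes, 3 were higher at passage 1 (Cdc6, Rrm2 and Pole) and 16 lower at passage 2, with median differences of 0.73 and −1.08. Mcm3 and Mcm5, subunits of the replicative helicase, differed by −1.25 and −1.45 to passage 2. Condensin and cohesin loading genes gave 2 of 17 higher at passage 1 (Ncapg and Ncapd2) and 5 lower at passage 2, and entry kinases and phosphatases 4 of 14 higher and 3 lower.

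Of 20 transcription regulators of G2 and mitosis, 0 were called at passage 1 against 0 and 4, all lower, at passage 2 against 1. Those 4 were Foxm1 (−1.22) and Mybl2 (−1.09), the activators that work with MuvB, and the repressors E2f7 and E2f8. At passage 1, Foxm1 averaged 26.4 ± 3.44 FPKM, against 12.7 ± 0.617 FPKM at passage 0 (SD, n = 2 each), a difference of 1.00 that fell just short of the minimum with an adjusted p of 0.001 from limma. Mybl2 differed by 0.96 in that step. Mki67, the proliferation marker that coats mitotic chromosomes, averaged 28.8 ± 4.67 FPKM at passage 1 and 12.2 ± 1.28 FPKM at passage 0 (1.16, adjusted p 4.58e-05, limma), and differed by −1.33 to passage 2 (adjusted p 6.05e-06, limma). The core and inhibitors of the APC/C had 0 of 15 called at passage 1 and 1 at passage 2, Fbxo5 (−1.38), the interphase inhibitor of the complex.

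CDK inhibitors restrain the cyclin-dependent kinases. Of 7, 1 was called lower at passage 1 and 1 higher at passage 2, and both were Cdkn1c, p57. It averaged 68.2 ± 31.8 FPKM at passage 1, against 338 ± 30.9 FPKM at passage 0 (SD, n = 2 each), a difference of −2.37 (SE 0.40, adjusted p 0.000141, limma), and 198 ± 40.0 FPKM at passage 2 (1.59 above passage 1, adjusted p 0.0112, limma). Cdkn1a, p21, averaged 109 FPKM at passage 1 and 59.3 FPKM at passage 0 (0.86), and Cdkn2a, the Ink4a/Arf locus, 32.5 and 13.9 FPKM (1.17, adjusted p 0.173, limma), and neither was called. Among all genes called, the 34 mitosis genes gave 29 of the 164 that were higher at passage 1, other mitosis lists 33, the S phase list 3 and no list 99. Of the 241 that were lower at passage 2, they gave 34, other mitosis lists 56, the S phase list 16 and no list 135.

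**Figure D3:**
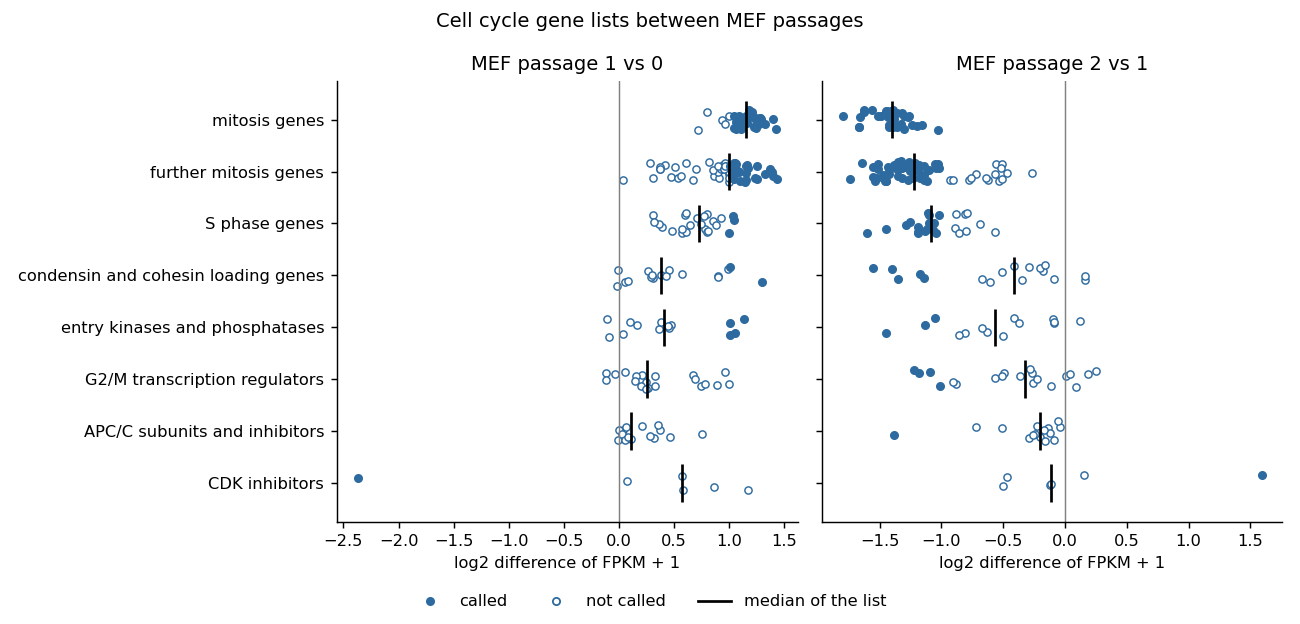
Differences in log2(FPKM + 1), on the horizontal axes, for passage 1 minus 0 (left) and passage 2 minus 1 (right), by cell cycle list down the page. Each point is a gene, filled where called, and the line is the list's median, 1.15 and −1.40 for the mitosis genes; Cdkn2d, whose symbol stands in 2 entries of the table, is not drawn.

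MEF, taken over their passages, were compared with both ends of the stem cell course. Against ESC, 30 of 34 genes were lower in MEF and 0 higher, where 19.2% of all genes tested were lower. The median difference was −1.74, with a range from −2.78 for Ccnb1 to −0.16 for Nuf2. Against EB day 7, 31 were lower and 0 higher, where 16.1% of all genes tested were lower, with a median of −1.52 from −2.21 for Cenpf to −0.73 for Prc1. Leaving out 1 library of the groups gave 30 to 33 genes against ESC and 26 to 33 against day 7. The 6 MEF libraries are 2 cultures sampled at 3 passages each, but the fit counts them as separate libraries. The SE and p-values against MEF are to be read with that limit. With 1 mean per MEF culture instead, 30 genes were lower against ESC, and the medians were −1.74 against ESC and −1.52 against day 7.

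Bub1, the kinase that recruits checkpoint proteins to kinetochores, had 4.34 to 12.9 FPKM in MEF and 38.8 to 47.4 FPKM in ESC, with means of 7.42 ± 4.08 (SD, n = 6) and 43.0 ± 4.35 FPKM (SD, n = 3). The difference was −2.51 (SE 0.21, adjusted p 2.95e-12, limma), and the highest MEF library lay far under the lowest ESC library. Spc24, of the Ndc80 complex, averaged 10.8 FPKM in MEF and 62.3 FPKM in ESC (−2.55, SE 0.22, adjusted p 9.5e-12, limma). For Ube2c the difference was −2.51 (adjusted p 1.42e-11, limma), with 28.6 to 94.9 FPKM in MEF and 256 to 295 FPKM in ESC. Ccnb1 had 16.4 to 62.1 FPKM in MEF and 187 to 214 FPKM in ESC (−2.78, SE 0.25, adjusted p 1.52e-11, limma). Even the passage 1 libraries, the highest of MEF, did not reach ESC for these genes.

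The exceptions against ESC were Nuf2 (adjusted p 0.56, limma), Prc1 (−0.87), Ndc80 (−0.90) and Kif23 (−0.91), of which Nuf2 and Ndc80 form a dimer in the Ndc80 complex. Nuf2 had 7.61 to 27.8 FPKM in MEF and 13.0 to 16.0 FPKM in ESC, so the MEF passage 1 libraries lay above ESC and the passage 2 libraries below. By role, the checkpoint and APC/C genes had the lowest median (−2.06, 6 of 6 called), and the motors and bundlers (−1.32, 6 of 8) and kinetochore genes (−1.39, 5 of 7) the smallest.

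Against EB day 7, Cenpf averaged 3.83 ± 2.02 FPKM in MEF (SD, n = 6) and 20.1 ± 2.80 FPKM at day 7 (SD, n = 5), a difference of −2.21 (SE 0.16, adjusted p 1.42e-13, limma). Bub1 differed by −2.17 (adjusted p 2.73e-12, limma), and Ttk, the Mps1 kinase at the head of the checkpoint, by −1.95 (adjusted p 5.6e-11, limma). Cdk1 (−0.86), Mad2l1 (−0.93) and Prc1 were the genes not called. Beyond the 34 genes, 44 of 58 further mitosis genes and 22 of 24 S phase genes were lower in MEF than in ESC. Mybl2 averaged 4.58 FPKM in MEF and 257 FPKM in ESC (−5.62), whereas Foxm1 differed by −0.29 and Mki67 by −0.68, neither called.

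**Figure D4:**
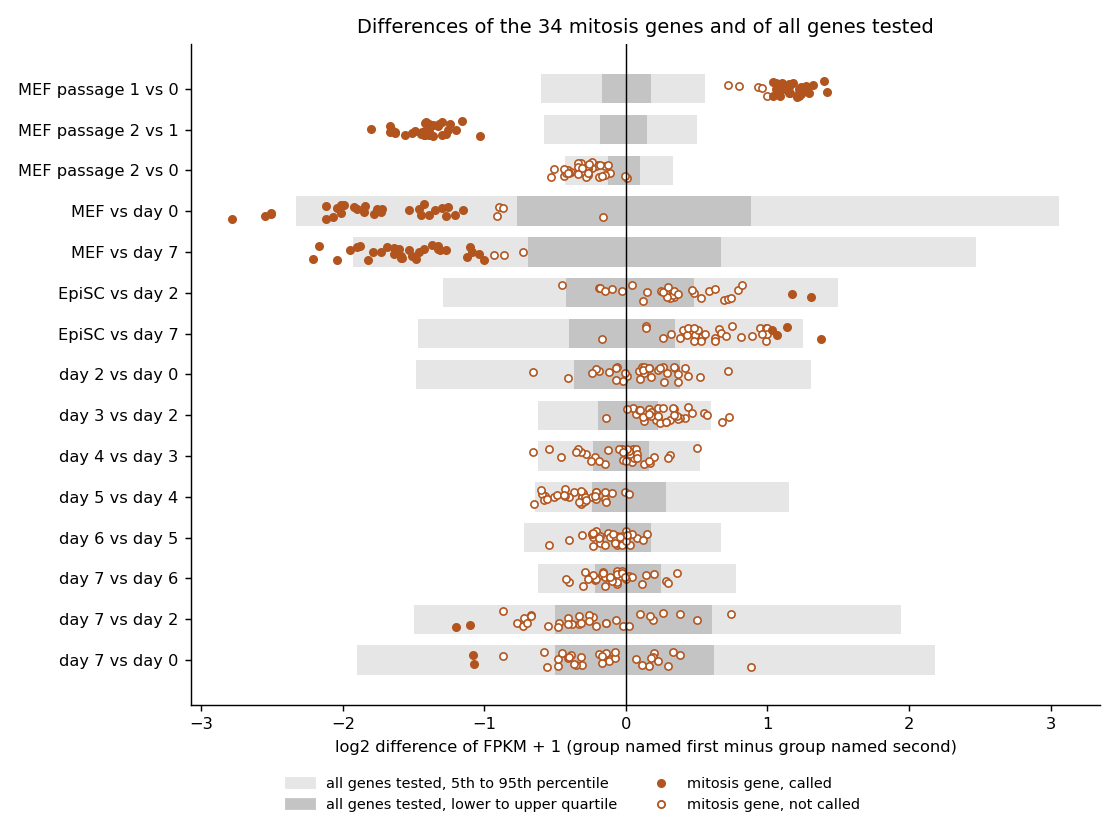
Difference in log2(FPKM + 1) of each mitosis gene in every comparison, as points, filled where called. Comparisons run down the page, the horizontal axis is the group named first minus the group named last, and the bars show the percentile ranges given in the key for all genes tested. All points lie outside the bars in the steps to passage 1 and to passage 2, whereas in the daily steps most lie within them.

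Along the stem cell course the question was whether the machinery changed as naive cells became neural. No daily step had a called gene. Of 34 genes, 0 were called in EpiLC against ESC (16.8% of all genes tested were, in either direction), at day 3 against day 2 (1.87%), day 4 against 3 (2.3%), day 5 against 4 (7.77%), day 6 against 5 (4.96%) and day 7 against 6 (4.8%). Genes with an unadjusted p under 0.05 in limma numbered 3, 5, 2, 3, 0 and 0 in these steps. These low counts come from the fit of 9 groups, whose spread per gene includes the scatter of MEF over passages (SD 0.68 of the members' mean). In limma fits on only the groups compared, they numbered 18, 20, 5, 18, 2 and 11, again with 0 genes called. The share of all genes at an unadjusted p under 0.05 was not counted. The medians were 0.13, 0.25, 0.00, −0.31, −0.08 and −0.08 in the same order. At day 3 against day 2, 33 of 34 genes had a positive difference, and at day 5 against day 4, 33 of 34 a negative one. These medians depended on the scaling: that of day 3 against day 2 was 0.12 after quantile normalization and −0.01 with each library scaled to the same FPKM sum, where the median of all genes was −0.16. At day 5 against day 4 it was −0.19 and −0.15, where the median of all genes with equal sums was 0.12.

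In FPKM as deposited, most genes were highest in the middle of the course, 14 of them at day 3 and 16 at day 4, and 17 were lowest at day 7. These ranks were not counted under another scaling. With equal FPKM sums the members' median was −0.01 at day 3 against day 2 and −0.02 at day 7 against day 2. Ccnb1 had 187 to 214 FPKM at day 0, 216 to 258 at day 2, 226 to 243 at day 3, 220.1 to 304 at day 4, 128 to 201 at day 5, 115 to 160 at day 6 and 102 to 114 at day 7. Its libraries of days 2 to 4 overlap, and those of day 7 lie below all earlier days. Cdc20 had 126 to 144 FPKM at day 0, 203 to 241 at day 2, 266 to 352 at day 3, 167 to 210 at day 4, 114 to 131 at day 5, 102 to 106 at day 6 and 86.1 to 106 at day 7. Its day 3 libraries stood above all others of the course. Ube2c instead was highest at day 0, at 281 ± 21.8 FPKM, with 243 ± 17.0 at day 2, 224 ± 49.7 at day 3, 198 ± 9.09 at day 4, 141 ± 14.1 at day 5, 119.5 ± 9.56 at day 6 and 132 ± 9.83 at day 7 (SD). Nuf2 averaged 14.7 ± 1.55 FPKM at day 0, 19.4 ± 2.14 at day 2, 29.3 ± 7.54 at day 3, 31.7 ± 4.46 at day 4, 27.7 ± 6.32 at day 5, 29.0 ± 5.30 at day 6 and 27.7 ± 1.15 at day 7 (SD), the opposite order of its ends; its difference of 0.88 at day 7 against day 0 was under the minimum (adjusted p 0.00336, limma).

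Top2a had its highest mean at day 3. It averaged 123 ± 10.3 FPKM at day 0, 167 ± 11.4 at day 2, 200.3 ± 56.2 at day 3, 168 ± 9.72 at day 4, 136 ± 16.3 at day 5, 120.2 ± 20.9 at day 6 and 114 ± 12.8 at day 7 (SD, n of each group as above). At day 3, Birc5 had 332 FPKM in replicate 3, and 159 and 181 FPKM in the others. Replicate 3 is also the library with the highest sum over the table, and without it the median difference of day 3 against day 2 was 0.19 and of day 4 against day 3 was 0.05, with 0 genes called in each.

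Cdk1, Plk1 and Aurka had their highest means at days 3 and 4. Cdk1 averaged 65.1 ± 3.99 FPKM at day 0, 83.6 ± 8.37 at day 2, 87.8 ± 4.85 at day 3, 90.6 ± 11.8 at day 4, 70.2 ± 12.7 at day 5, 60.5 ± 9.66 at day 6 and 48.7 ± 4.04 at day 7 (SD). Plk1 averaged 79.2 ± 6.24 FPKM at day 0, 95.9 ± 9.45 at day 2, 108 ± 12.4 at day 3, 91.0 ± 9.37 at day 4, 61.8 ± 9.4 at day 5, 51.9 ± 4.83 at day 6 and 59.9 ± 4.92 at day 7, and Aurka 62.7 ± 4.75 FPKM at day 0, 69.9 ± 3.11 at day 2, 96.7 ± 21.3 at day 3, 74.9 ± 3.24 at day 4, 55.3 ± 5.58 at day 5, 47.1 ± 6.88 at day 6 and 42.2 ± 4.49 at day 7. The means of Plk1 and Aurka were highest at day 3 and that of Cdk1 at day 4. Bub1b averaged 47.4 ± 2.94 FPKM at day 0, 51.5 ± 4.78 at day 2, 64.1 ± 4.74 at day 3, 67.0 ± 2.77 at day 4, 44.4 ± 3.04 at day 5, 42.5 ± 5.54 at day 6 and 43.6 ± 2.54 at day 7, and Cenpa 116 ± 15.4 FPKM at day 0, 109.5 ± 5.61 at day 2, 139 ± 23.9 at day 3, 121 ± 4.29 at day 4, 96.2 ± 5.93 at day 5, 94.3 ± 10.1 at day 6 and 87.8 ± 5.89 at day 7. Kif11 averaged 27.3 ± 2.68 FPKM at day 0, 39.4 ± 2.71 at day 2, 43.1 ± 4.19 at day 3, 49.6 ± 3.02 at day 4, 39.6 ± 1.84 at day 5, 37.0 ± 7.3 at day 6 and 35.8 ± 4.38 at day 7, with its lowest mean in naive cells. Birc5 had its lowest mean at day 7, and averaged 139 ± 17.4 FPKM at day 0, 133 ± 5.24 at day 2, 224 ± 94.3 at day 3, 175 ± 13.2 at day 4, 123 ± 19.0 at day 5, 116 ± 14.2 at day 6 and 99.5 ± 3.54 at day 7. Aurkb stayed within a narrow range, at 44.9 ± 2.65 FPKM at day 0, 41.5 ± 3.76 at day 2, 43.4 ± 7.57 at day 3, 44.9 ± 7.2 at day 4, 35.9 ± 2.23 at day 5, 36.7 ± 2.05 at day 6 and 47.4 ± 3.5 at day 7.

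**Figure D5:**
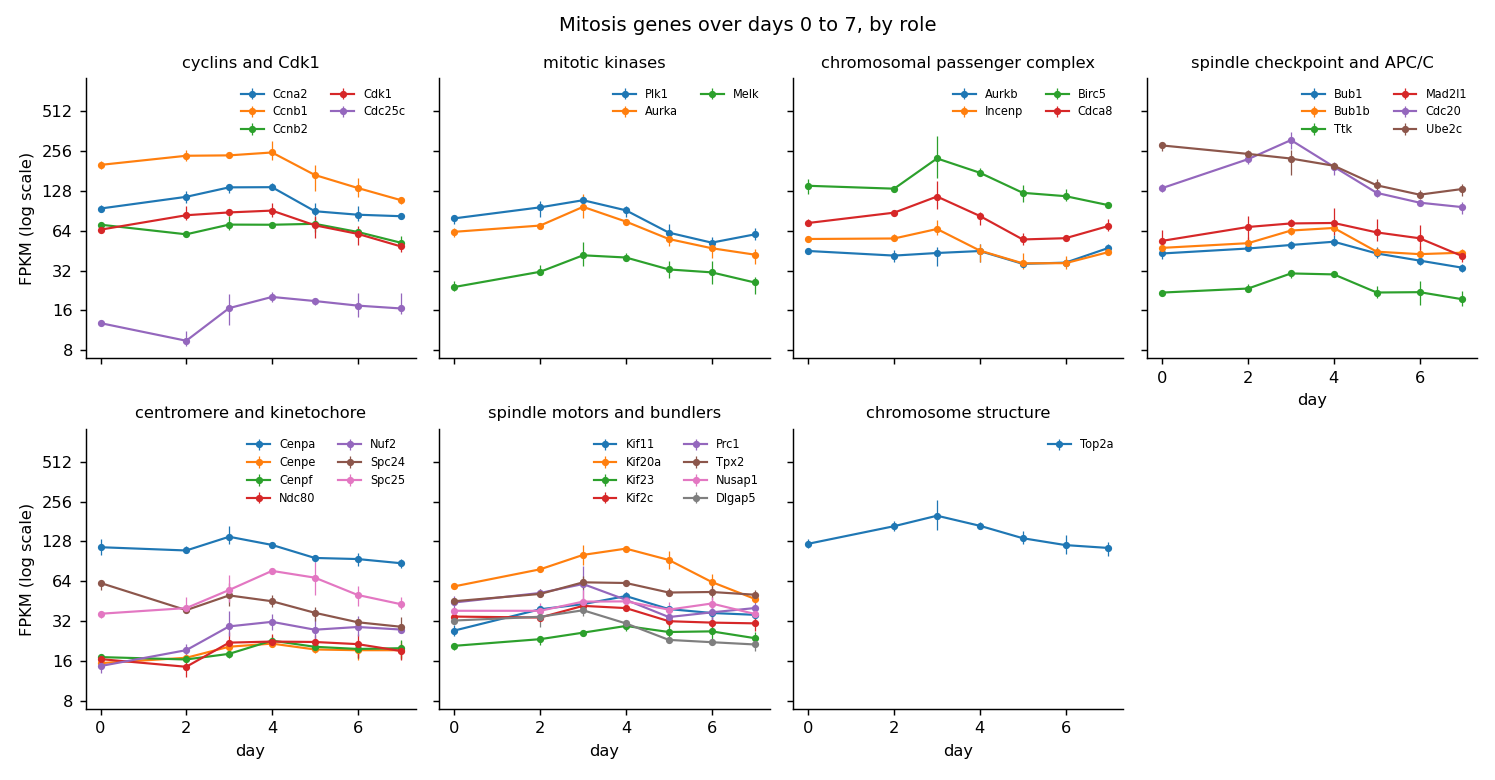
Levels of the 34 mitosis genes by day of the stem cell course, in a panel for each role. The horizontal axes are days, the vertical axes FPKM on a log scale, points are group means and bars run from the lowest to the highest library. Cdc20 peaks at day 3, Ccnb1 stays high to day 4, and Ube2c is highest at day 0.

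Over longer spans a few genes passed both criteria. At day 7 against day 2, 2 of 34 genes were lower and 0 higher, where 11% of all genes tested were lower. Cdc20 had 86.1, 97.8, 90.0, 106 and 102 FPKM at day 7, against 241, 203, 213, 231 and 221 FPKM at day 2, a difference of −1.20 (SE 0.19, adjusted p 1.36e-06, limma). Ccnb1 averaged 109 ± 4.56 FPKM at day 7 and 235 ± 18.8 FPKM at day 2 (SD, n = 5 each), a difference of −1.10 (SE 0.22, adjusted p 6.51e-05, limma). For both genes every day 7 library lay below every day 2 library. Tpx2 (−0.02), Kif23 (0.02), Nusap1 (−0.07) and Spc25 (0.10) had the smallest differences. At day 7 against day 0, 2 of 34 were lower and 0 higher, where 12.6% of all genes tested were lower. Ube2c had 133, 135, 131, 117 and 144 FPKM at day 7, against 292, 295 and 256 FPKM at day 0 (−1.08, SE 0.23, adjusted p 0.000148, limma). Spc24 had 26.6 to 34.3 FPKM at day 7 and 55.5 to 65.9 FPKM at day 0 (−1.07, SE 0.23, adjusted p 0.000164, limma), and Aurkb (0.07), Nusap1 and Cdca8 (−0.08 each) and Top2a (−0.11) had the smallest differences.

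These 4 calls depended on the scaling between libraries. After quantile normalization the differences were −0.78 for Cdc20 and −0.68 for Ccnb1 at day 7 against day 2, and −0.73 for Ube2c and −0.90 for Spc24 at day 7 against day 0, all under the minimum, and Nuf2 was then called higher at day 7 than at day 0. With each library scaled to the same FPKM sum they were −0.89, −0.79, −0.72 and −0.72, and Cdc25c at day 7 against day 2 and Nuf2 at day 7 against day 0 were called higher, where the median of all genes shifted to 0.27 at day 7 against day 2 and 0.33 against day 0. The members' median at day 7 against day 2 was −0.33 as deposited, −0.05 after quantile normalization and −0.02 with equal sums; at day 7 against day 0 it was −0.17, 0.05 and 0.19. No direction is therefore given for the genes as a whole over these spans. Neuron markers, summed over 7 genes, had 231.9 to 345.1 FPKM at day 7, against 44.53 to 65.24 FPKM at day 2 and 191.2 to 231.0 FPKM at day 0. Singly, 7 of the 7 were called higher at day 7 than at day 2. Against day 0, 6 were called higher and 1 lower, with a median difference of 2.84. What part neurons had in the differences of the mitosis genes was not tested.

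A fit without MEF and with no minimum difference, added after the data were seen, called smaller differences. By it, 9 genes were higher and 3 lower at day 2 against day 0, where 26.6% of all genes tested were higher and 25.4% lower. It used FPKM as deposited. At day 3 against day 2, 13 genes were higher, where 10.8% of all genes tested were, led in size by Cdc25c (0.73) and Birc5 (0.68). With equal FPKM sums the members' median in this step was −0.01. Birc5 had 332 FPKM in day 3 replicate 3, the library with the highest sum, and 159 and 181 FPKM in the other day 3 libraries. At day 5 against day 4, 13 genes were lower, where 11.8% of all genes tested were, with Cdc20 at −0.65, Ccna2 at −0.60, Bub1b at −0.59 and Ccnb1 at −0.57. At day 7 against day 2, 21 were lower and 4 higher (33.9% and 36.9% of all genes tested), and at day 7 against day 0, 14 lower and 3 higher (31.4% and 34.5%). Nuf2 was among those higher in both spans.

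Among the regulators, Mybl2 averaged 21.9 FPKM at day 7 and 257 FPKM at day 0 (−3.50), while Foxm1 and Mki67 were called in no comparison of the course. Cdkn1a averaged 18.6 FPKM at day 7 and 73.3 FPKM at day 2 (−1.91), Cdkn2a 2.96 and 32.8 FPKM (−3.16) and Cdkn1b, p27, 33.3 and 10.8 FPKM (1.54), all with adjusted p under 0.05 from limma. Of 58 further mitosis genes, 7 were lower at day 7 than at day 2 and 0 higher, and of 24 S phase genes, 2 were lower, Ccne1 (−1.84) and Cdt1 (−1.07), shares near the 11% of all genes tested that were lower.

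EpiSC were compared with EpiLC and EB day 7, which both have libraries in the project of EpiSC. Against EpiLC, 2 of 34 genes were higher in EpiSC and 0 lower, where 10.8% of all genes tested were higher. Cdc25c had 19.7, 26.7 and 28.6 FPKM in EpiSC and 8.55 to 11.1 FPKM in EpiLC (1.31, SE 0.25, adjusted p 4.67e-05, limma). Ccnb2 had 113, 144 and 155 FPKM in EpiSC and 58.1 to 60.8 FPKM in EpiLC (1.17, SE 0.25, adjusted p 0.000195, limma). Neither gene's libraries overlapped between the groups. The median of the 34 genes was 0.32, and the lowest was Cdc20 at −0.45. The median was 0.50 after quantile normalization and 0.58 with equal sums, where the median of all genes was 0.22, and 0.22 without EpiSC replicate 2 and 0.47 without EpiSC replicate 1. The smallest differences were those of Birc5 (−0.03), Ccnb1 (0.04), Kif20a (−0.10) and Ube2c (0.12). In EpiSC, Plk1 averaged 84.2 ± 8.23 FPKM, Aurka 85.5 ± 11.9, Aurkb 64.3 ± 17.1, Bub1b 85.7 ± 11.6, Cenpa 140.1 ± 24.2, Kif11 48.4 ± 2.27, Cdc20 162 ± 17.3 and Birc5 130.5 ± 13.8 FPKM (SD, n = 3).

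Against EB day 7, 4 of 34 genes were higher in EpiSC and 0 lower, where 7.3% of all genes tested were higher, and the median was 0.63. They were Ccnb2 (137 ± 21.7 FPKM in EpiSC, n = 3, and 51.9 ± 4.49 FPKM at day 7, n = 5, SD; difference 1.38, adjusted p 2.82e-05, limma), Cdk1 (1.07, adjusted p 0.000127, limma), Ccnb1 (1.14, adjusted p 0.000435, limma) and Top2a (1.03, adjusted p 0.000586, limma). Within the project of EpiSC, 4 genes were again called, but with Bub1 and Ube2c in place of Cdk1 (0.95) and Top2a (0.89). Top2a was also under the minimum after quantile normalization (0.94) and with equal sums (0.99), while Ccnb1 and Ccnb2 were called in each of these. Cdk1 had 93.0, 116 and 101 FPKM in EpiSC and 44.3 to 53.9 FPKM at day 7, and Top2a 196, 263 and 247 FPKM in EpiSC and 99.8 to 127 FPKM at day 7. Incenp and Cenpe (0.14 each), Nuf2 (−0.17) and Spc24 (0.26) had the smallest differences. The count moved with single libraries: 2 genes without EpiSC replicate 2, 11 without EpiSC replicate 1, 7 without day 7 replicate 2 and 8 without day 7 replicate 5. By the fit without MEF and with no minimum, 21 genes were higher in EpiSC than in EpiLC (31.1% of all genes tested) and 29 higher than at day 7 (25.0%).

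Since EpiSC grew on feeder cells, the fibroblast markers were summed here too, with 307.9 to 502.7 FPKM in EpiSC against 16.0 to 21.27 FPKM in EpiLC and 64.97 to 154.8 FPKM at day 7; MEF libraries had 9070 to 13822 FPKM. All 34 mitosis genes had a lower mean in MEF than in any other group, and the part of feeder RNA in the EpiSC values was not tested. Mki67 averaged 62.0 FPKM in EpiSC and 26.7 FPKM in EpiLC (1.19, adjusted p 5.52e-05, limma). Of 58 further mitosis genes, 9 were higher in EpiSC than at day 7 and 0 lower (all genes tested, 7.3% higher), among them Pttg1, securin (247.0 FPKM in EpiSC and 75.7 FPKM at day 7, difference 1.64), and Psrc1 (1.65).

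Across the 34 libraries the mitosis genes followed each other closely. Pearson's r of a member with the mean of the other 33, on log2(FPKM + 1), lay between 0.741 for Nuf2 and 0.991, with the next lowest at 0.864 for Cdc25c, 0.875 for Prc1 and 0.887 for Ndc80. This is a description over libraries that share the MEF against the rest, and over the 28 libraries outside MEF r fell to 0.169 for Nuf2, 0.334 for Aurkb, 0.338 for Cdc25c and 0.373 for Spc24, with the highest at 0.934 for Ccna2. Outside the 34, the genes most like their mean over all 34 libraries were Ncapg (0.983), a condensin subunit, Nek2 (0.981), Cdca2 (0.979), Ska3 (0.978), of the kinetochore Ska complex, and the kinesin Kif20b (0.976). They were followed by Kpna2 (0.975), an importin, Gmnn (0.972), geminin, Rad54l (0.972), a recombination factor, the kinesin Kif22 (0.972) and the replication factor Mcm10 (0.969).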

How the data were processed

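RNA of 34 mouse libraries had been prepared with a stranded poly(A) kit and sequenced. Per the submitters' processing notes, the tools were HISAT2 2.0.4, cutadapt 1.4.1, Cufflinks 2.2.1 and Cuffdiff, and the build was mm9; how the authors scaled FPKM between libraries and whether counting used strand are not given in the sources used here. The deposited values are FPKM per gene and library, and depth is unknown. Groups, passages and cultures were taken from titles and source names.

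From the deposited FPKM, log2(FPKM + 1) was computed, entries reaching 1 FPKM in 3 or more libraries (14595) were taken into the test, and limma 3.58.1 in R 4.3.3 was fitted across all of them (moderated statistics with an intensity trend, Benjamini-Hochberg adjustment). The fit had 9 groups, or 11 with MEF split by passage. Calls needed an adjusted p under 0.05 together with a difference of 1 or more. The code was tested on simulated data. The members and lists were chosen with earlier results of these data known. All members could be named. In each comparison up to 6 called members with the smallest adjusted p and 4 with the smallest differences were described, as were up to 4 called genes of other lists with the smallest adjusted p, and the 10 genes most correlated with the members' mean, always with Mki67, Foxm1, Mybl2, Cdkn1a and Cdkn2a.

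The labels tie the MEF libraries to 2 cultures, which pairs them across passages. Deviations from passage means correlated between libraries of a culture at r of 0.02 to 0.236. Promoters came from RefSeq, GRCm38.p6, by symbol. Alternatives were another pseudocount, filter, scaling, minimum difference or set of samples, a culture block, a project term and leaving out each library.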

Additional observations from a re-analysis of the deposited data

Results flagged for a closer look

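Of 105 sets of values, over the mitosis genes and their mean in the groups of 5 or 6 libraries, 6 held a highest or lowest library whose gap to its nearest neighbour was a large part of the whole range; chance gives about 1 in 20. At EpiLC day 2, Ccnb2 had 58.1 FPKM in replicate 3 while the other libraries lay between 60.1 and 60.8 FPKM. Melk had 35.5 FPKM in replicate 2 (others 29.4 to 30.8 FPKM), Spc24 41.9 FPKM in replicate 5 (others 37.8 to 38.3 FPKM) and Spc25 48.9 FPKM in replicate 1 (others 36.8 to 38.7 FPKM). At EB day 7, Cdc25c had 21.5 FPKM in replicate 4 (others 15.1 to 15.4 FPKM), and Nusap1 39.6 FPKM in replicate 5 (others 35.3 to 36.1 FPKM). Each of the 6 fell in a different library.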

How the results depend on the processing

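With no minimum difference, the calls among the 34 mitosis genes were 3 at day 2 against 0, 1 at day 3 against 2, 1 at day 5 against 4, 14 at day 7 against 2, 6 at day 7 against 0, 10 in EpiSC against EpiLC and 19 in EpiSC against day 7. With a minimum of 0.58 they were 2, 1, 1, 10, 5, 9 and 18 in these comparisons. Without MEF and with no minimum, chosen after seeing the data, they were 12, 13, 3, 13, 1 and 2 in the daily steps, 25 and 17 at day 7 against days 2 and 0, and 22 and 29 in EpiSC against EpiLC and day 7. Of all genes tested, that fit called 26.6% higher and 25.4% lower at day 2 against 0. At day 7 against 2 it called 36.9% higher and 33.9% lower. For the other looser rules the share of all genes was not counted. Nor was it for the fit without MEF at day 4 against 3, day 6 against 5 and day 7 against 6. Counts without such a share are not read as a result about the mitosis genes. Quantile normalization gave 0 calls at day 7 against 2 and 1 against 0 (Nuf2, higher). Equal FPKM sums, added after the data were seen, gave 1 (Cdc25c) and 1 (Nuf2), both higher, and 5 in EpiSC against EpiLC. A pseudocount of 0.1 gave 7 in EpiSC against day 7. Fitting only the groups compared gave 0 in both MEF passage steps. Leaving out 1 library gave 17 to 31 calls at passage 1 against 0, 32 to 34 at passage 2 against 1, 30 to 33 in MEF against ESC, 26 to 33 in MEF against day 7, 2 to 3 in EpiSC against EpiLC and 2 to 11 in EpiSC against day 7. It left 2 calls at day 7 against 2 and 2 against 0, and 0 in the daily steps and at passage 2 against 0. With the culture as a replicate block, MEF counts were 29, 34 and 0, with medians of 1.15, −1.40 and −0.27. With the course as a replicate block, the daily steps had 0 calls and day 7 against 2 had 2; libraries of the same course correlated at r of −0.319 to 0.327, so the course, which is known only from consecutive dates in the titles, was not taken to pair them. A project term gave 6 in EpiSC against day 7. For single genes, 4356 values under alternatives kept their side of the threshold, 18 gained and 124 lost the call, and 0 called differences changed sign. Depth was unknown, so no limit of detection could be given.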
